A study of Mus musculus with 14 samples.

Results

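Skeletal muscle of male mice fed western diet was compared between animals that overexpress Myc in endothelial cells (OE-WD, 4 samples) and their controls (CT-WD, 3 samples), across all expressed genes. These 7 samples, taken by genotype and diet as labelled, are part of a series of 14. The mice were FVB/N males that carry a human MYC transgene under tetracycline control, which lies on the Y chromosome. Overexpressing animals also carry a tetracycline transactivator driven by the Cdh5 promoter, and controls lack it. In both groups doxycycline diet was withdrawn between 4 and 6 weeks of age, and the western diet (TD.88137) lasted 20 weeks per the labels. The study's results describe a shorter diet for these transcriptomes, and the labels were kept. The other samples of the series are controls (CT-CTD, 3 samples) and overexpressing mice (OE-CTD, 4 samples) of the same strain and treatment on the control diet TD.08485. RNA came from soleus and gastrocnemius, and the labels do not say which muscle a sample came from. The library names of the OE-WD samples share a number, that of CT-WD 1 is far from those of CT-WD 2 and CT-WD 3, that of CT-CTD 1 is next to it, and the labels do not explain the names. Polyadenylated RNA was counted per gene, with 26518734, 21833839 and 23814408 counts in CT-WD 1 to 3 and 25281275, 27115249, 22033140 and 27698046 counts in OE-WD 1 to 4. Levels are in CPM, counts scaled by TMM and to a common library total, unless given as FPKM, which also divides by gene length. The study's text describes group sizes by diet where the labels give them by genotype, and here too the labels were used. An exchange of the names CT-WD and OE-CTD would give the study's sizes, and the fold of Socs3 given below matches the study under that exchange. The genotype and diet of CT-WD and OE-CTD below rest on the labels alone.

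Myc is a transcription factor known for driving ribosome production, nucleotide synthesis and cell division. Endothelial cells are a small part of a muscle, which is mostly made of multinucleated fibres, so RNA of whole muscle reports on fibres first and on vessels, connective tissue and nerve in smaller shares. Muscle fibres also run a circadian clock, in which Arntl and Clock switch on Dbp, Nr1d1 and Per genes, and they answer glucocorticoids and fasting with genes of protein breakdown and fuel choice such as Trim63, Fbxo32 and Pdk4.

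Among the 10 most abundant genes per length were 4 of muscle fibres, Acta1, Tnnt3, Atp2a1 and Myh4, and 5 of mitochondrial DNA, led by mt-Co1. Per length, Acta1 (skeletal muscle actin) stood at 29400, 33900 and 29600 FPKM in CT-WD 1 to 3, against 29800, 29200, 26800 and 38100 FPKM in OE-WD 1 to 4. Myh4, the myosin of the fastest fibres, had 8320, 10600 and 9710 FPKM in CT-WD 1 to 3, against 8450, 8360, 7740 and 11600 FPKM in OE-WD 1 to 4. For both, the groups overlapped and OE-WD 4 was the highest. The slow myosin Myh7 was far lower, at 137, 108 and 121 FPKM in CT-WD 1 to 3, against 164, 176, 143 and 211 FPKM in OE-WD 1 to 4. All 4 OE-WD values of Myh7 lay above the controls, and the difference did not pass the test (log2 fold change 0.50, adjusted p = 0.137 in edgeR's test). Of 11 slow fibre genes and of 12 fast fibre genes, 0 were altered, with median log2 fold changes of -0.02 and -0.08, and without CT-WD 1, 1 slow gene rose. The most abundant of them, Myh4, belongs to the fast list, whose summed level was 126000, 154500 and 139700 CPM in CT-WD 1 to 3, against 129400, 125800, 122000 and 163000 CPM in OE-WD 1 to 4. The slow list, led by Fhl1, summed to 7029, 7249 and 9449 CPM in CT-WD 1 to 3, against 8747, 8583, 7694 and 8827 CPM in OE-WD 1 to 4. In both lists the groups overlapped, and OE-WD 4 was the highest of all 7 in the fast one. OE-WD 4 also had the largest share of counts from mitochondrial genes, 14.5%, against 9.66% to 12.1% in the other 6.

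One control stood apart from its group. On the first principal component of the 1000 most variable genes, which held 35.5% of their variance, CT-WD 2 and CT-WD 3 scored 26.5 and 29.7, CT-WD 1 scored -17.5, and the OE-WD samples scored -2.47, -23.6, -21.5 and -9.4. CT-WD 1 lay among the overexpressing samples. Markers of tissue around the muscle set the same controls apart. The 8 tendon genes, of which the proteoglycan Fmod is the most abundant, summed to 520, 86.39 and 109.9 CPM in CT-WD 1 to 3, against 439.4, 910.3, 599.7 and 319 CPM in OE-WD 1 to 4. Those of epidermis and hair, led by the keratin Krt5, summed to 113.9, 13.09 and 13.69 CPM in CT-WD 1 to 3, against 22.57, 97.67, 151.7 and 73.08 CPM in OE-WD 1 to 4. CT-WD 1 and the 4 OE-WD samples were thus high for tendon genes, and CT-WD 2 and CT-WD 3 were low. Chad, a cartilage and tendon protein, showed the same gap, with 28.2, 1.01 and 1.42 CPM in CT-WD 1 to 3, against 18.7, 45.9, 29.3 and 11.2 CPM in OE-WD 1 to 4. Fibroblast genes, led by Col1a2, summed to 1473, 488.1 and 486.3 CPM in CT-WD 1 to 3, against 1041, 2410, 1361 and 1080 CPM in OE-WD 1 to 4, and CT-WD 2 and CT-WD 3 were again the lowest. The adipocyte list was led by Car3, a gene that muscle fibres also express, and summed to 1758, 1672 and 1596 CPM in CT-WD 1 to 3, against 2090, 2172, 1922 and 1924 CPM in OE-WD 1 to 4. Without Car3 its sum was 384, 257.6 and 283.9 CPM in CT-WD 1 to 3, against 267.5, 316.5, 271.9 and 228.6 CPM in OE-WD 1 to 4, with overlapping groups. Of the 9 members tested, 7 had a log2 fold change above 0, with a median of 0.61 (1.45 without CT-WD 1). Adipoq, the fat-cell hormone, stood at 15.3, 3.87 and 1.78 CPM in CT-WD 1 to 3, against 7.47, 13.5, 9.32 and 8.84 CPM in OE-WD 1 to 4. Fabp4, which vessels also express, had 239, 216 and 260 CPM in CT-WD 1 to 3, against 204, 207, 195 and 152 CPM in OE-WD 1 to 4, highest in CT-WD 3. Lep, the gene of leptin, had 2.78, 0.87 and 0.356 CPM in CT-WD 1 to 3, against 3.07, 12.4, 3.96 and 13.3 CPM in OE-WD 1 to 4, which did not overlap and did not pass (adjusted p = 0.114), and without CT-WD 1 it passed (adjusted p = 0.0265). No defining marker of these 4 lists was at 0 in all 7 samples, although the hair keratins Krt71 and Krt25 were at 0 in 5 and 4 of them. In whole muscle, more cells of a type and more RNA per cell cannot be told apart. None of the tendon, epidermis, fibroblast or adipocyte genes was altered in OE-WD with all samples. Without CT-WD 1 the altered ones numbered 7 of 8, 2 of 10, 5 of 11 and 3 of 9, all higher in OE-WD. In that fit 905 of all 15828 genes tested were altered, 598 higher and 307 lower. The part of this surrounding tissue in the results below was not tested.

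**Figure D1:**
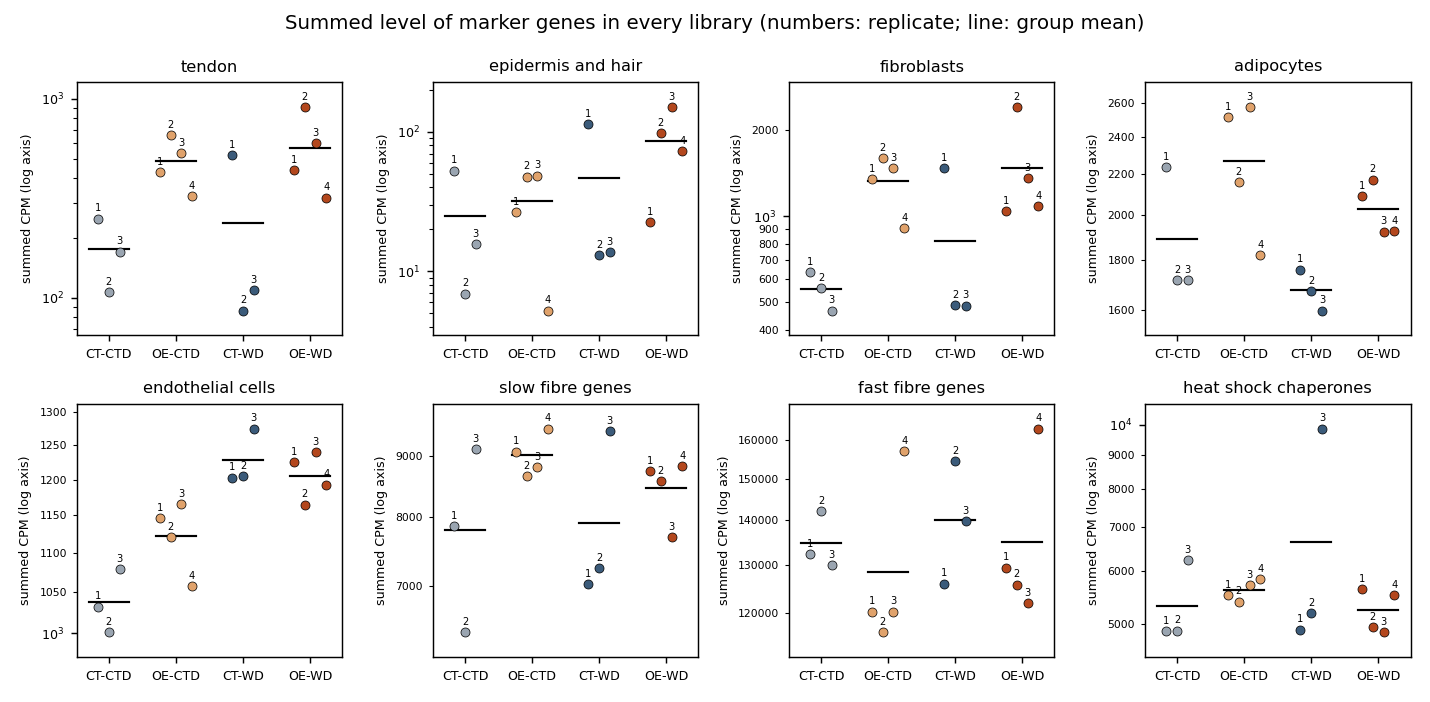
Summed level in CPM (log axis) of the marker genes of 8 lists, with 1 point per sample, the replicate number above it and a line at the group mean. CT-WD 1 lay with the overexpressing samples for tendon genes (520 CPM), far from CT-WD 2 and 3 (86.4 and 110 CPM).

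Of 15458 genes tested, 87 were altered in OE-WD, meaning a fold change over 1.5 and an adjusted p under 0.05 in edgeR's quasi-likelihood test (0.563% of genes). There were 39 genes higher in OE-WD (0.252%) and 48 lower (0.311%), and 82 of the 87 code for proteins. At an unadjusted p under 0.05 the same fold limit was passed by 887 genes (5.74%), 513 of them higher (3.32%) and 374 lower (2.42%), and without CT-WD 1 by 1875. For 85 of the 87 genes the samples of both groups did not overlap, which held for 11.6% of all genes. The 87 were called on these same samples, and such calls favour groups that do not overlap, so this adds no separate support. Increases were moderate, with a median log2 fold change of 0.79, and decreases were larger, with a median of -1.07. Among the controls, CT-WD 1 was the one nearest to the overexpressing samples for 31 of the 39 genes that rose (79.5%) and for 34 of the 48 that fell (70.8%). The same share over all genes tested was not counted.

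The number of altered genes rested on single samples and on the model. Without CT-WD 1 it was 905 of 15828 tested, 598 higher and 307 lower, which included all 87. It was 109 without OE-WD 1. It was 13 without CT-WD 2, 7 without CT-WD 3, 4 without OE-WD 2, 6 without OE-WD 3 and 13 without OE-WD 4. Samples on control diet, which are in the same model, changed the count too, with 53, 43 and 57 genes without OE-CTD 1, OE-CTD 2 and OE-CTD 3. All 87 genes kept their direction when any of the 7 samples was left out. Only 4 of them passed in each of those 7 fits, namely Syne1, Spns2, Eya4 and Dbp. DESeq2 called 309 genes, 86 of them shared with the 87, limma on log2(FPKM + 1) called 29, 28 of them shared, and the 2 western diet groups fitted alone gave 4 genes. Giving the CT-WD samples the name OE-CTD and the reverse, which would set group sizes by diet, gave 1 altered gene, which was not among the 87.

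Of the 4 genes that passed in each of those 7 fits, 3 were decreases, of genes known from muscle nuclei, development and lipid transport. Syne1 (ENSMUSG00000096054, chromosome 10, 5020917 to 5551482, minus strand) encodes nesprin-1, which anchors the nuclei of a fibre to its cytoskeleton. It stood at 122, 111 and 127 CPM in CT-WD 1 to 3, against 68.7, 55.1, 65.6 and 55.1 CPM in OE-WD 1 to 4. Every OE-WD sample lay far below every control, with a log2 fold change of -0.97 (edgeR adjusted p = 0.00306, standard error 0.11), and it was also called when the western diet groups were fitted alone (adjusted p = 0.0238). The other genes of the nuclear envelope bridge did not follow. Of 11 tested, Syne1 was the 1 altered gene and the median log2 fold change was -0.10, with -0.06 (adjusted p = 0.814) for its relative Syne2 and -0.10 (adjusted p = 0.624) for Sun2, the partner in the inner nuclear membrane.

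Eya4 (ENSMUSG00000010461, chromosome 10, 23102963 to 23350786, minus strand), a phosphatase and transcriptional coactivator, stood at 88, 63.7 and 79.1 CPM in CT-WD 1 to 3, against 44.9, 41.2, 41.1 and 40.7 CPM in OE-WD 1 to 4. The 4 OE-WD values were below all controls, OE-WD 1 being the highest of them, with a log2 fold change of -0.87 (edgeR adjusted p = 0.0032, standard error 0.108). Spns2 (ENSMUSG00000040447, chromosome 11, 72451638 to 72489904, minus strand) exports the lipid signal sphingosine 1-phosphate from cells. Its level was 86, 131 and 137 CPM in CT-WD 1 to 3, against 46.6, 42.9, 48.7 and 43.5 CPM in OE-WD 1 to 4, a log2 fold change of -1.38 (edgeR adjusted p = 0.0032, standard error 0.174), which was -1.56 without CT-WD 1, the lowest control. Of 11 genes that make, move or sense sphingosine 1-phosphate, Spns2 was the 1 altered gene, and the median was 0.05, whereas without CT-WD 1 2 rose and 1 fell. Its annotated span overlaps the antisense gene Mybbp1a, with a mean of 108 CPM, and whether reads were counted by strand is not stated, so reads of this pair may be shared. The kinase Map3k6, singled out after its value was seen, was the 4th gene called in the fit of the western diet groups alone, beside Syne1, Spns2 and Eya4. Its level was 29.2, 38.2 and 32.3 CPM in CT-WD 1 to 3, against 18.9, 14.4, 15.7 and 16.7 CPM in OE-WD 1 to 4, with no overlap and a log2 fold change of -1.01 (adjusted p = 0.0399). Its call in the model of all 14 samples was lost in fits without CT-WD 2 (adjusted p = 0.17), 1 without CT-WD 3 (adjusted p = 0.142), 1 without OE-WD 2 (adjusted p = 0.141), 1 without OE-WD 3 (adjusted p = 0.111) and 1 without OE-WD 4 (adjusted p = 0.0907).

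**Figure D2:**
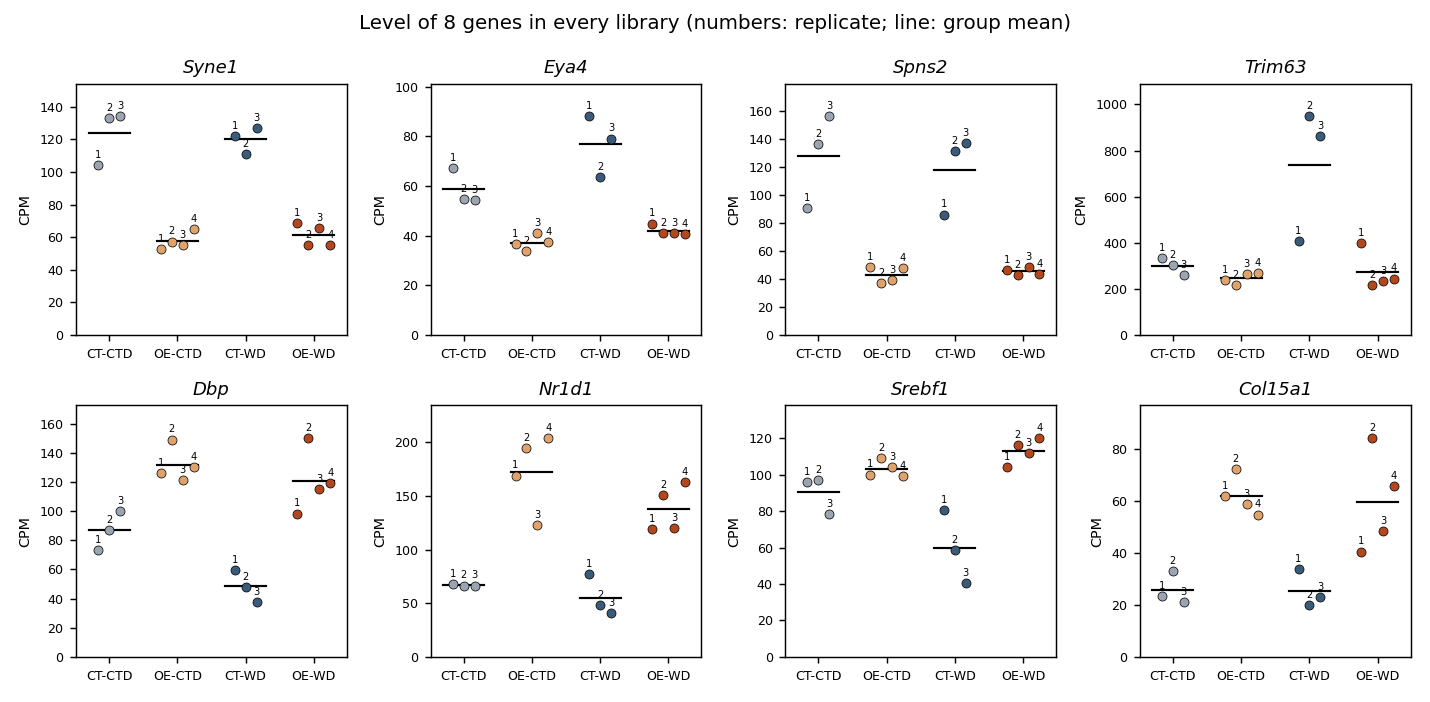
Level in CPM of 8 genes in all 14 samples, with 1 point per sample, the replicate number above it and a line at the group mean. Syne1, Eya4 and Spns2 were lower in the overexpressing samples on either diet, and the means of Syne1 on western diet were 120 and 61.1 CPM.

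Clock genes were among both the increases and the decreases. Of 9 genes that peak with Dbp, 4 rose in OE-WD and 0 fell, 8 had a log2 fold change above 0, and the median was 0.44, against 0.01 over all genes tested. Dbp, a transcription factor that drives daily output genes, stood at 59.6, 48 and 37.3 CPM in CT-WD 1 to 3, against 98.3, 150, 115 and 119 CPM in OE-WD 1 to 4. All OE-WD samples were above all controls, and CT-WD 3 was the lowest. Nr1d1 (ENSMUSG00000020889, chromosome 11, 98767932 to 98775333, minus strand) encodes the repressor Rev-erb alpha. It had 77.4, 48 and 40.7 CPM in CT-WD 1 to 3, against 119, 151, 120 and 163 CPM in OE-WD 1 to 4, a log2 fold change of 1.32 (edgeR adjusted p = 0.0193, standard error 0.206). Its annotated span overlaps that of the antisense gene Thra, which had a mean of 50.4 CPM, and the spans of Dbp and Ciart overlap those of Sphk2 (18.4 CPM) and C920021L13Rik (0.974 CPM). Hlf, a close relative of Dbp, stood at 15.8, 15.8 and 11.8 CPM in CT-WD 1 to 3, against 21.8, 21.9, 20.7 and 24.4 CPM in OE-WD 1 to 4, a smaller gap of 0.61 (adjusted p = 0.0322) with no overlap. Ciart, a repressor of the clock, was the 4th gene that rose, at 1.88 (adjusted p = 0.0282). Tef, Nr1d2, Per1, Per2 and Per3 did not pass. Their log2 fold changes ran from -0.01 for Per2 to 0.44 for Per3. Bhlhe40, a clock repressor outside the list, was among the largest increases, with 124, 63.1 and 64.9 CPM in CT-WD 1 to 3, against 159, 175, 164 and 165 CPM in OE-WD 1 to 4 and a log2 fold change of 0.98 (adjusted p = 0.0325). CT-WD 1 was the control nearest to the OE-WD samples and the other controls were far below.

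Of the opposite phase, 1 of 6 genes fell. All 6 tested had a log2 fold change below 0, with a median of -0.30, and the altered one was Arntl (ENSMUSG00000055116, chromosome 7, 113207465 to 113314126, plus strand). Cry1, at -0.04, and Clock, at -0.14, were near 0. Without CT-WD 1, 0 rose and 2 fell. Arntl encodes Bmal1, the partner of Clock. It stood at 16.3, 24.1 and 37.3 CPM in CT-WD 1 to 3, against 15.4, 9.08, 11.3 and 11.4 CPM in OE-WD 1 to 4, a log2 fold change of -1.13 (edgeR adjusted p = 0.035, standard error 0.228). CT-WD 3 had the highest level, and CT-WD 1 lay just above OE-WD 1. Nfil3, a repressor of the genes that Dbp activates, had 33.2, 99.4 and 226 CPM in CT-WD 1 to 3, against 43.4, 24, 27.3 and 42.7 CPM in OE-WD 1 to 4 and did not pass (adjusted p = 0.0562), and its CT-WD 1 value lay within the range of OE-WD. Without CT-WD 1 its adjusted p was 0.000564. Clock itself was at 17.6, 19.6 and 22.8 CPM in CT-WD 1 to 3, against 17.1, 18.1, 17.5 and 19.8 CPM in OE-WD 1 to 4. The labels give no hour of tissue collection, and its part in the clock genes was not tested. The call of Dbp held without any one of the 7 samples. Of the calls of Nr1d1, Hlf, Ciart, Bhlhe40 and Arntl, the number lost was 5 without CT-WD 2 (adjusted p 0.0781 to 0.141), 5 without CT-WD 3 (adjusted p 0.0934 to 0.191), 5 without OE-WD 2 (adjusted p 0.0883 to 0.126), 4 without OE-WD 3 (adjusted p 0.0571 to 0.0999) and 4 without OE-WD 4 (adjusted p 0.0683 to 0.0883).

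Some glucocorticoid-responsive genes were among the decreases. Of 20 tested, 4 fell and 0 rose, 19 had a log2 fold change below 0, and the median was -0.63, with Gpx3 at -0.02 and Klf9 at 0.05. At an unadjusted p, 10 of the 20 fell past the fold limit, and without CT-WD 1 0 rose and 12 fell at the adjusted level. Over all 15828 genes tested without CT-WD 1, 598 rose and 307 fell. Their summed level, led by Pdk4, was 5588, 7852 and 7912 CPM in CT-WD 1 to 3, against 5135, 3060, 3811 and 3069 CPM in OE-WD 1 to 4. CT-WD 2 and CT-WD 3 were the highest and OE-WD 1 came close to CT-WD 1. Trim63 (ENSMUSG00000028834, chromosome 4, 134315120 to 134329629, plus strand), the ubiquitin ligase MuRF1 that marks sarcomere proteins for breakdown, stood at 407, 948 and 863 CPM in CT-WD 1 to 3, against 398, 218, 235 and 245 CPM in OE-WD 1 to 4. The groups nearly met at CT-WD 1 and OE-WD 1 and were otherwise far apart, with a log2 fold change of -1.43 (edgeR adjusted p = 0.0276, standard error 0.241) that was -1.72 without CT-WD 1. Fbxo32, the other muscle ubiquitin ligase of atrophy, had 540, 976 and 960 CPM in CT-WD 1 to 3, against 611, 302, 355 and 285 CPM in OE-WD 1 to 4. There the groups overlapped at CT-WD 1 and OE-WD 1 and the adjusted p was 0.0511. Mt1, a metal-binding metallothionein, stood at 41, 41.1 and 74.8 CPM in CT-WD 1 to 3, against 18.6, 23, 16.4 and 32.1 CPM in OE-WD 1 to 4, with no overlap and a log2 fold change of -1.22 (adjusted p = 0.0322). The co-chaperone Fkbp5 had 44.9, 141 and 130 CPM in CT-WD 1 to 3, against 38.5, 23.5, 22.2 and 28 CPM in OE-WD 1 to 4, a log2 fold change of -1.91 (adjusted p = 0.0399), and CT-WD 1 lay near OE-WD 1. Foxo1, the transcription factor upstream of both ligases, stood at 22.7, 63.4 and 44.6 CPM in CT-WD 1 to 3, against 23.1, 19, 20.4 and 23.1 CPM in OE-WD 1 to 4. CT-WD 1 was inside the OE-WD range, and Foxo1 did not pass (log2 fold change -1.02, adjusted p = 0.0694). It passed without CT-WD 1, at -1.33 (adjusted p = 0.00184), and its adjusted p in DESeq2 was 0.00509. Across 14 genes of atrophy and proteolysis, Trim63 alone was altered, 12 had a log2 fold change below 0, and the median was -0.19. Of these 14, 4 fell without CT-WD 1 and 2 were altered without OE-WD 1. Of the calls of Trim63, Mt1, Pdk4 and Fkbp5, the number lost was 4 without CT-WD 2 (adjusted p 0.0666 to 0.17), 4 without CT-WD 3 (adjusted p 0.112 to 0.173), Mt1 without OE-WD 1 (adjusted p = 0.0567), 4 without OE-WD 2 (adjusted p 0.0883 to 0.141), 4 without OE-WD 3 (adjusted p 0.0753 to 0.113) and 3 without OE-WD 4 (adjusted p 0.0683 to 0.0964).

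Pdk4 and Ucp3, of the list of PPAR-responsive fatty acid genes, were among the decreases. Pdk4 (ENSMUSG00000019577, chromosome 6, 5483351 to 5496309, minus strand), the kinase that shuts glucose carbon out of mitochondria, is abundant in muscle, at 3140, 3700 and 3670 CPM in CT-WD 1 to 3, against 2520, 1140, 1860 and 1100 CPM in OE-WD 1 to 4. OE-WD 1 was closest to the controls, and the log2 fold change of -1.08 (edgeR adjusted p = 0.043, standard error 0.229) was -1.15 without CT-WD 1. Ucp3 (ENSMUSG00000032942, chromosome 7, 100472990 to 100486432, plus strand), the mitochondrial uncoupling protein of muscle, had 476, 808 and 701 CPM in CT-WD 1 to 3, against 412, 230, 307 and 192 CPM in OE-WD 1 to 4, a log2 fold change of -1.21 (edgeR adjusted p = 0.0276, standard error 0.211). Its groups did not overlap, and CT-WD 1 and OE-WD 1 were the samples nearest to each other. Both belong to the 12 PPAR-responsive fatty acid genes, of which 2 fell, 0 rose and the median was -0.11. Angptl4, another of them and an inhibitor of lipoprotein lipase, stood at 46.2, 36.9 and 29.2 CPM in CT-WD 1 to 3, against 34.8, 18.9, 22 and 15.1 CPM in OE-WD 1 to 4 and did not pass (log2 fold change -0.72, adjusted p = 0.187). None of 17 genes of mitochondrial beta-oxidation was altered, with a median of 0.07. Slc16a3, the transporter that exports lactate from fast fibres, had 265, 294 and 335 CPM in CT-WD 1 to 3, against 174, 192, 186 and 199 CPM in OE-WD 1 to 4, with a log2 fold change of -0.67 (edgeR adjusted p = 0.0203, standard error 0.108). Its controls held together, CT-WD 1 included, and all lay above OE-WD. Fbp2 and Lpin1, picked out after their values were seen, were lower too. The log2 fold change was -0.78 (adjusted p = 0.0276) for the muscle fructose bisphosphatase Fbp2 and -0.71 (adjusted p = 0.0407) for the phosphatidate phosphatase Lpin1. Of the calls of Pdk4, Ucp3, Slc16a3, Fbp2 and Lpin1, the number lost was 4 without CT-WD 2 (adjusted p 0.0657 to 0.142), 5 without CT-WD 3 (adjusted p 0.111 to 0.214), 5 without OE-WD 2 (adjusted p 0.0883 to 0.143), 5 without OE-WD 3 (adjusted p 0.0576 to 0.113) and 4 without OE-WD 4 (adjusted p 0.0683 to 0.0935).

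Among genes of lipid synthesis, 2 rose. Srebf1 (ENSMUSG00000020538, chromosome 11, 60199089 to 60222581, minus strand), the transcription factor of fatty acid synthesis, stood at 80.6, 58.5 and 40.5 CPM in CT-WD 1 to 3, against 104, 116, 112 and 120 CPM in OE-WD 1 to 4, with a log2 fold change of 0.91 (edgeR adjusted p = 0.0282, standard error 0.162). Controls differed among themselves, from CT-WD 3 at the bottom to CT-WD 1 at the top, and OE-WD samples were close together above them. Its span overlaps that of Rai1, with a mean of 37.3 CPM. Scd2, a desaturase that it regulates, had 40.2, 20.3 and 18.3 CPM in CT-WD 1 to 3, against 48.8, 71.3, 56.4 and 67.8 CPM in OE-WD 1 to 4 and a log2 fold change of 1.21 (adjusted p = 0.0322). Its sister Scd1, which fat cells express strongly, had 367, 67.7 and 52.3 CPM in CT-WD 1 to 3, against 299, 645, 273 and 510 CPM in OE-WD 1 to 4, so CT-WD 1 lay within the OE-WD range and the gene did not pass (log2 fold change 1.41, adjusted p = 0.302). Without CT-WD 1 it passed, at 2.85 (adjusted p = 0.0159), and 3 lipogenic genes rose. Of 11 lipogenic genes, 2 rose, 0 fell, 10 had a log2 fold change above 0, and the median was 0.40. Fasn, the fatty acid synthase, did not pass (adjusted p = 0.59). Of 14 genes of cholesterol synthesis and uptake, 0 were altered and the median was 0.19, whereas without CT-WD 1 2 rose and 0 fell. The low points of Srebf1 and Scd2 were CT-WD 2 and CT-WD 3. Both calls held without CT-WD 1 or OE-WD 1, and the number lost was 2 without CT-WD 2 (adjusted p 0.0945 to 0.135), 2 without CT-WD 3 (adjusted p 0.0909 to 0.142), 2 without OE-WD 2 (adjusted p 0.0883 to 0.104), 2 without OE-WD 3 (adjusted p = 0.0753) and 2 without OE-WD 4 (adjusted p 0.0683 to 0.0875).

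Collagen genes were among the increases. Of 40 tested collagen genes, 4 rose and 1 fell at the adjusted level, 34 had a log2 fold change above 0, and the median was 0.64. At an unadjusted p, 16 were higher past the fold limit and 1 lower, and without CT-WD 1 18 rose and 1 fell at the adjusted level. That fit held 598 increases and 307 decreases over all 15828 genes tested. Summed, with Col1a2 the most abundant, collagens stood at 1759, 733.8 and 845.8 CPM in CT-WD 1 to 3, against 1375, 3097, 1790 and 1884 CPM in OE-WD 1 to 4, so that CT-WD 1 was inside the OE-WD range and the other controls were below it. The 4 that passed were not the fibrillar collagens of tendon. Col15a1 (ENSMUSG00000028339, chromosome 4, 47208161 to 47313167, plus strand), a collagen of the basement membrane zone of fibres and capillaries, had 33.7, 19.8 and 23 CPM in CT-WD 1 to 3, against 40.5, 84.1, 48.3 and 65.7 CPM in OE-WD 1 to 4, with a log2 fold change of 1.22 (edgeR adjusted p = 0.0322, standard error 0.238). Its relative Col18a1, the source of endostatin, had 16.3, 9.47 and 10.5 CPM in CT-WD 1 to 3, against 18, 30.6, 24.1 and 25.2 CPM in OE-WD 1 to 4 and a log2 fold change of 1.01 (adjusted p = 0.0299). Col4a2, a chain of the main basement membrane collagen, had 131, 101 and 134 CPM in CT-WD 1 to 3, against 155, 252, 179 and 241 CPM in OE-WD 1 to 4 and 0.76 (adjusted p = 0.0324), and its partner chain Col4a1 came to 0.68 (adjusted p = 0.0635). Col22a1, which sits where muscle meets tendon, had 23, 14.3 and 15.7 CPM in CT-WD 1 to 3, against 27.4, 35.7, 33.3 and 31.8 CPM in OE-WD 1 to 4 and 0.86 (adjusted p = 0.0193). In each of the 4, every OE-WD sample was above every control, and OE-WD 2 was the highest. Col19a1, a scarce collagen, was the 1 that fell, with 2.39, 0.918 and 2.27 CPM in CT-WD 1 to 3, against 0.389, 0.0351, 0.17 and 0.683 CPM in OE-WD 1 to 4. Of these 5 calls, the number lost was 5 without CT-WD 2 (adjusted p 0.0666 to 0.144), 5 without CT-WD 3 (adjusted p 0.111 to 0.191), Col19a1 without OE-WD 1 (adjusted p = 0.0637), 5 without OE-WD 2 (adjusted p 0.0883 to 0.111), 5 without OE-WD 3 (adjusted p 0.0576 to 0.13) and 4 without OE-WD 4 (adjusted p 0.0559 to 0.0883). The spans of Col4a2 and Col4a1 overlap, at 188 CPM for the latter, and that of Col18a1 overlaps Slc19a1, at 5.13 CPM.

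In fibrillar collagens CT-WD 1 lay with the OE-WD samples, as it did for tendon genes. Col1a1 stood at 316, 53.2 and 49 CPM in CT-WD 1 to 3, against 194, 616, 306 and 254 CPM in OE-WD 1 to 4, and CT-WD 1 was above 3 of the 4 OE-WD samples. Its log2 fold change was 1.30 with all samples (adjusted p = 0.24) and 2.74 without CT-WD 1 (adjusted p = 0.00196). For Col15a1 and Col4a2 the same step was small, to 1.48 and 0.81. The laminin chains Lama4 and Lamb1 and the linker Nid2, basement membrane proteins singled out after their values were seen, had log2 fold changes of 0.70 (adjusted p = 0.0277), 0.80 (adjusted p = 0.0345) and 0.82 (adjusted p = 0.0325). Lama4, the laminin chain typical of vessels, stood at 20.6, 16.7 and 18.4 CPM in CT-WD 1 to 3, against 26.2, 35.1, 27.6 and 31.9 CPM in OE-WD 1 to 4. Timp4, an inhibitor of matrix metalloproteinases, went down, with 32.1, 45 and 50.3 CPM in CT-WD 1 to 3, against 25.7, 19.8, 18.7 and 20.8 CPM in OE-WD 1 to 4 (edgeR adjusted p = 0.0193). CT-WD 1 was the lowest control there, still above all OE-WD samples. Whether the collagens' difference comes with the amount of tendon and fibroblast RNA was not tested. The calls of Lama4, Lamb1, Nid2 and Timp4 held without CT-WD 1, and the number lost was 4 without CT-WD 2 (adjusted p 0.0657 to 0.157), 4 without CT-WD 3 (adjusted p 0.0934 to 0.173), 4 without OE-WD 2 (adjusted p 0.0883 to 0.115), 4 without OE-WD 3 (adjusted p 0.0576 to 0.0769) and 3 without OE-WD 4 (adjusted p 0.0683 to 0.0883). The span of Nid2 overlaps Rtraf, with a mean of 64.5 CPM.

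Vessel genes were compared next. Of 18 endothelial genes, 0 were altered, 10 had a log2 fold change above 0, and the median was 0.13. Led by the water channel Aqp1, they summed to 1203, 1205 and 1275 CPM in CT-WD 1 to 3, against 1225, 1165, 1240 and 1193 CPM in OE-WD 1 to 4, with the groups overlapping. Cdh5, the endothelial cadherin whose promoter drives the transactivator, stood at 86.7, 76.8 and 79.8 CPM in CT-WD 1 to 3, against 107, 117, 117 and 106 CPM in OE-WD 1 to 4. All OE-WD samples were above all controls, and the log2 fold change of 0.46 (edgeR adjusted p = 0.0322, standard error 0.0905) was short of the 1.5-fold limit. Kdr, the main receptor of vascular growth factor, had 36.7, 35.7 and 36.2 CPM in CT-WD 1 to 3, against 50.6, 62.7, 50.5 and 52.9 CPM in OE-WD 1 to 4, a log2 fold change of 0.58 (adjusted p = 0.108) with no overlap that did not pass. Other endothelial genes lay the other way. Sox18, a transcription factor of vessels, had 11.9, 23.6 and 38.2 CPM in CT-WD 1 to 3, against 16.6, 12.9, 12.3 and 12 CPM in OE-WD 1 to 4 and a log2 fold change of -0.87 (adjusted p = 0.175), and that of Flt1, a receptor beside Kdr, was -0.33 (adjusted p = 0.173). For Aqp1, Sox17 and Cldn5 it was -0.27, -0.37 and -0.31. Without CT-WD 1, 1 rose and 1 fell of the 18. Outside the list, Unc5b, a guidance receptor of capillaries, stood at 5.86, 5.51 and 4.89 CPM in CT-WD 1 to 3, against 11.2, 15.5, 12.6 and 9.84 CPM in OE-WD 1 to 4 and had a log2 fold change of 1.18 (adjusted p = 0.0298). For Podxl, a sialomucin of the vessel lumen that was singled out after its value was seen, it was 0.68 (adjusted p = 0.0399). Among 12 vascular growth factors and receptors 0 were altered and the median was 0.35. Vegfa, the most abundant, had a log2 fold change of -0.08 and overlapping groups. For 10 smooth muscle and pericyte genes the median was 0.12, again with 0 altered. Without CT-WD 1, 3 of the vascular growth factors and 3 of the smooth muscle and pericyte genes rose, and without OE-WD 1, 1 of the latter was altered. Of the calls of Unc5b and Podxl, the number lost was 2 without CT-WD 2 (adjusted p 0.0951 to 0.135), 2 without CT-WD 3 (adjusted p 0.0934 to 0.138), Podxl without OE-WD 1 (adjusted p = 0.0567), 2 without OE-WD 2 (adjusted p 0.0965 to 0.111), 2 without OE-WD 3 (adjusted p 0.0753 to 0.0892) and Podxl without OE-WD 4 (adjusted p = 0.0883). The adjusted p of Cdh5 was up to 0.142 with 1 sample left out.

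Mouse Myc, which is not the human transgene, stood at 8.71, 4.93 and 13.3 CPM in CT-WD 1 to 3, against 9.03, 5.61, 5.74 and 5.22 CPM in OE-WD 1 to 4, with overlapping groups and a log2 fold change of -0.49 (adjusted p = 0.442). Whether reads of the human transgene were counted in it is not known, so overexpression itself could not be checked. Neither of the lists of Myc targets held an altered gene. Of 22 genes of ribosome production, led by Ncl, 0 were altered and the median log2 fold change was -0.02. Of 14 targets in metabolism and the cell cycle, 0 were altered with a median of -0.08, and without CT-WD 1 1 rose and 1 fell. Proliferation genes were scarce in this tissue. Of 15, 10 passed the filter on low counts, 0 were altered, the median was 0.37 (0.87 without CT-WD 1), and they summed to 47.4, 44.07 and 56.1 CPM in CT-WD 1 to 3, against 47.86, 54.01, 49.38 and 46.24 CPM in OE-WD 1 to 4. Pcna, the most abundant, had a log2 fold change of -0.19 and Ccnd1, a cyclin of early division, one of 1.24 (adjusted p = 0.0604). Without CT-WD 1, 2 rose and 1 fell, and 1 was altered without CT-CTD 1 or without CT-CTD 2. The study names several genes, Socs3 for the response of overexpressing mice to diet and others for the comparison made here. Socs3, a brake on cytokine signalling, stood at 9.69, 3.53 and 7.91 CPM in CT-WD 1 to 3, against 3.46, 5.65, 3.57 and 2.77 CPM in OE-WD 1 to 4 and the secreted factor Wnt10a was under 1 CPM in all 7 samples. Neither passed (adjusted p = 0.382 and 0.654). Socs3 was 1.83-fold lower in OE-WD (log2 fold change -0.87). The study gives the same fold for Socs3 in overexpressing mice on western against control diet. The log2 fold change of Wnt10a, which the study names as higher in OE-WD, was 0.52. The mean of Wnt10a was 0.515 CPM in OE-WD, 0.349 CPM in CT-WD and 0.129 CPM in OE-CTD. Whether the study names the samples labelled CT-WD and OE-CTD the other way round is not known. The study names Zbtb16, Acsl3, Rabif, S100a3 and S100a14 as higher in OE-WD and Rrad as lower, and they are given here outside the rule for naming genes, after their values were seen. Zbtb16 stood at 117, 136 and 181 CPM in CT-WD 1 to 3, against 131, 90.3, 89.5 and 89.5 CPM in OE-WD 1 to 4, a log2 fold change of -0.53 (adjusted p = 0.111). That of Acsl3 was 0.17 (adjusted p = 0.648), of Rabif -0.21 (adjusted p = 0.717), of Rrad -0.55 (adjusted p = 0.626) and of S100a14 0.89 (adjusted p = 0.684), and S100a3 had too few counts to be tested. None was altered on western diet. On control diet Zbtb16, Acsl3 and Rabif were lower in OE-CTD, at -1.02, -0.96 and -1.14 (adjusted p = 0.00575, 0.0073 and 0.0292), and their interaction did not pass (adjusted p = 0.838, 0.675 and 0.834).

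Several large differences stood outside these groups. The liver-type carboxylesterase Ces2c had the largest decrease of the genes named here, with 3.69, 0.821 and 3.07 CPM in CT-WD 1 to 3, against 0.233, 0.105, 0.298 and 0.362 CPM in OE-WD 1 to 4, a log2 fold change of -3.34 (edgeR adjusted p = 0.0193, standard error 0.533) at few counts. The potassium channel subunit Kcnf1 had 38.1, 54.6 and 43 CPM in CT-WD 1 to 3, against 22.7, 10.7, 9.95 and 12.7 CPM in OE-WD 1 to 4 and the sperm-tail gene Odf3l2 had 40, 137 and 78.5 CPM in CT-WD 1 to 3, against 30.3, 28.7, 17.4 and 35.3 CPM in OE-WD 1 to 4. Both were lower in all OE-WD samples, with log2 fold changes of -1.69 and -1.61. Crip3, Tmem82 and the noncoding 4931413K12Rik and Gm10603 were lower at levels under 10 CPM, with log2 fold changes between -1.92 and -1.37. Gm10603 lies antisense to Ucp3, which had a mean of 446 CPM, and 4931413K12Rik antisense to Pitpna, at 127 CPM, so these levels are uncertain where reads were not counted by strand. Among the increases, Slc6a6, the taurine transporter of muscle, had 127, 96.8 and 108 CPM in CT-WD 1 to 3, against 163, 177, 173 and 169 CPM in OE-WD 1 to 4 with a log2 fold change of 0.62 (edgeR adjusted p = 0.0193, standard error 0.0943). Cygb (cytoglobin) had 13.3, 11.1 and 8.85 CPM in CT-WD 1 to 3, against 14.8, 28.4, 23.1 and 21.7 CPM in OE-WD 1 to 4. The potassium channel partner Kctd12b, the synaptic adaptor Apba1 and the matrix-binding Itih5 rose by 1.34, 1.12 and 0.96 on the log2 scale. None of these decreases and increases had an overlap between groups, which the rule for naming genes required of them. Ribosomal protein Rpl21 had a log2 fold change of -1.16, at 31.3, 46 and 17.3 CPM in CT-WD 1 to 3, against 14.2, 14.7, 14.1 and 13.2 CPM in OE-WD 1 to 4. Gapdh ran from 22.7 CPM in OE-WD 1 to 857 CPM in OE-WD 4. Both belong to families with many pseudogenes, whose part in these counts was not tested. Of the calls of Ces2c, Kcnf1, Odf3l2, Crip3, Tmem82, 4931413K12Rik, Gm10603, Slc6a6, Cygb, Kctd12b, Apba1, Itih5 and Rpl21, the number lost was 11 without CT-WD 2 (adjusted p 0.0661 to 0.221), 12 without CT-WD 3 (adjusted p 0.0844 to 0.222), 3 without OE-WD 1 (adjusted p 0.0567 to 0.0794), 13 without OE-WD 2 (adjusted p 0.0883 to 0.139), 13 without OE-WD 3 (adjusted p 0.0576 to 0.112) and 11 without OE-WD 4 (adjusted p 0.0683 to 0.109).

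Medians of large complexes lay slightly off 0. Of 81 cytosolic ribosomal protein genes, 78 had a log2 fold change below 0 with a median of -0.31, and 1, Rpl21, was altered. Of 80 nuclear genes of oxidative phosphorylation, 76 were below 0 with a median of -0.20 and 0 were altered, against 1 without CT-WD 1 and 1 without OE-WD 1. The ribosomal list, led by Rplp0, summed to 11340, 13790 and 13980 CPM in CT-WD 1 to 3, against 10780, 9902, 10390 and 11130 CPM in OE-WD 1 to 4. The oxidative phosphorylation list, led by Atp5b, summed to 23120, 26360 and 27330 CPM in CT-WD 1 to 3, against 23430, 22560, 22690 and 22200 CPM in OE-WD 1 to 4. In both, CT-WD 2 and CT-WD 3 were the highest. CT-WD 1 lay close above the OE-WD samples for the first and within their range for the second. Of the 13 protein genes of mitochondrial DNA, 12 were above 0 with a median of 0.22, and OE-WD 4 was the highest. Medians differed by gene length. The 1546 shortest genes (56 to 1272 bases) had a median log2 fold change of -0.19 and the 1546 longest one of 0.04, whereas on control diet those medians were -0.01 and -0.04. By level, the 1546 most abundant genes had a median of -0.07. The part of gene length in the ribosomal and oxidative phosphorylation medians was not tested.

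Stress genes set one control apart from the rest. All 12 heat shock chaperones had a log2 fold change below 0, with a median of -0.53 and 0 altered, whereas 5 fell without CT-WD 1. The inducible Hspa1a, which cells make after heat or injury, stood at 3.29, 3.33 and 66 CPM in CT-WD 1 to 3, against 5.56, 3.89, 3.15 and 4.42 CPM in OE-WD 1 to 4, so the gap came with CT-WD 3. The whole list, led by Hsp90ab1, summed to 4898, 5195 and 9869 CPM in CT-WD 1 to 3, against 5649, 4945, 4852 and 5530 CPM in OE-WD 1 to 4. Atf3, an immediate-early gene of injury, was also high there, with 31.9, 12.2 and 307 CPM in CT-WD 1 to 3, against 27.4, 14.6, 21.4 and 22.2 CPM in OE-WD 1 to 4. For 21 immediate-early genes the median was -0.14, and 0 were altered. Myog, a factor of muscle differentiation in the satellite cell list, had 7.95, 18.9 and 76.6 CPM in CT-WD 1 to 3, against 9.45, 5.86, 8.63 and 6.75 CPM in OE-WD 1 to 4, again highest in CT-WD 3. Of the 8 satellite cell genes 0 were altered, with a median of -0.20. Without CT-WD 1, 2 rose and 2 fell among these, and 1 immediate-early gene fell.

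Other gene groups held no altered gene. Glucose handling was among them, with medians of 0.04 over 18 genes of insulin signalling, -0.22 over 12 entries of glycolysis and -0.14 over 12 of glycogen metabolism. The glucose transporter Slc2a4 stood at 597, 687 and 704 CPM in CT-WD 1 to 3, against 641, 589, 595 and 590 CPM in OE-WD 1 to 4, with overlapping groups. The giant sarcomere and cytoskeleton genes, led by Ttn, had a median of 0.03 over 14, and the neuromuscular junction one of 0.04 over 12. Macrophage genes had a median of 0.11 over 12 and, led by Lyz2, were highest in CT-WD 1 and OE-WD 2, at 152 and 147 CPM. Their median was 0.56 without CT-WD 1 and 0.82 on control diet. Schwann cell genes had a median of 0.08 over 8, and red blood cell genes one of -0.09 over 4. Of 9 lymphocyte genes 2 passed the filter on low counts, with a median of 0.00. Without CT-WD 1, 1 gene each of glycolysis, the giant genes and the macrophage list rose, 1 each of insulin signalling and glycogen metabolism fell, and 2 of the neuromuscular junction fell. Without OE-WD 1, 1 gene of insulin signalling was altered.

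On control diet the same contrast, OE-CTD against CT-CTD, shares no sample with the one on western diet. The samples of both diets are not fully separate. Deviations of CT-CTD and CT-WD samples from their groups correlated weakly between equal numbers, at 0.385, 0.123 and 0.203. CT-CTD 2 correlated slightly better with CT-WD 3, at 0.142. OE-WD 4 also lay near OE-CTD 4 and apart from its own group in some lists. Genes of mitochondrial DNA summed to 158500 CPM in OE-WD 4 and 165100 CPM in OE-CTD 4, against 116900, 106000 and 100800 CPM in OE-WD 1 to 3. Fast fibre genes summed to 163000 and 157000 CPM in OE-WD 4 and OE-CTD 4, against 129400, 125800 and 122000 CPM in OE-WD 1 to 3. The part of both in the shares below was not tested. The contrast on control diet held 295 altered genes (1.91% of those tested), 183 higher and 112 lower. That count was 99 without CT-CTD 2, 64 without CT-CTD 3 and 170, 102 and 102 without OE-CTD 1, OE-CTD 2 and OE-CTD 3, and it was 509 in DESeq2 and 129 in limma. Of the 87 genes altered on western diet, 82 had the same direction on control diet, where 64.5% of all tested genes had the same direction on both. Altered on both diets, in the same direction, were 38 genes, which is 43.7% of the 87 and 12.9% of the 295. The genes that rose on western diet had a median log2 fold change of 0.60 on control diet, and those that fell had one of -0.64. Syne1, Spns2 and Ucp3 were as far apart on control diet, with log2 fold changes of -1.10, -1.57 and -1.38 (adjusted p = 0.000575, 0.00122 and 0.00575). In Syne1 the mean of CT-CTD was 124 ± 16.9 CPM (SD, n = 3), and that of OE-CTD was 57.5 ± 5.19 CPM (SD, n = 4). Col15a1 and Nr1d1 were likewise altered on both, at 1.26 and 1.36 on control diet. Fibroblast and tendon markers set those groups apart as well, and those of epidermis and hair did not. The latter summed to 52.76, 6.904 and 15.61 CPM in CT-CTD 1 to 3, against 26.64, 47.87, 48.65 and 5.206 CPM in OE-CTD 1 to 4, highest in a control. Adipocyte genes also overlapped, and their median log2 fold change was -0.26 on control diet, against 0.61 on western diet. Fibroblast genes summed to 636.8, 559 and 466.8 CPM in CT-CTD 1 to 3, against 1344, 1596, 1472 and 908.5 CPM in OE-CTD 1 to 4, and tendon genes to 250.3, 106.8 and 170.9 CPM in CT-CTD 1 to 3, against 428.1, 655.1, 531.8 and 323.6 CPM in OE-CTD 1 to 4, with no overlap in either. Their median log2 fold changes on control diet were 0.87 and 1.46, and that of collagens was 0.67. The part of this tissue in the directions shared by both diets was not tested.

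Other genes passed on western diet and not on control diet. Trim63 came to -0.27 there (adjusted p = 0.647), Srebf1 to 0.18 (0.633), Arntl to 0.10 (0.895) and Hlf to -0.14 (0.626). The mean of Trim63 was 300 ± 38.2 CPM (SD, n = 3) for CT-CTD. For CT-WD it was 740 ± 291 CPM (SD, n = 3), and for OE-WD 274 ± 83.5 CPM (SD, n = 4), so the high values were those of CT-WD 2 and CT-WD 3. The diet by genotype interaction tests such a difference directly, and 0 genes (0% of 15458) passed it at an adjusted p under 0.05 in edgeR's test, the smallest adjusted p being 0.675. At an unadjusted p under 0.05 it held 915 genes, 18 of them among the 87. DESeq2 called 3 genes and limma 0, and edgeR called 1 without CT-WD 1 and 1 without CT-WD 2. The adjusted p of the interaction was 0.825 for Trim63, 0.825 for Srebf1, 0.825 for Arntl and 0.675 for Hlf, so their difference between diets was not shown. Immediate-early genes had a median log2 fold change of 0.81 on control diet, and that difference between diets was not tested as a list.

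**Figure D3:**
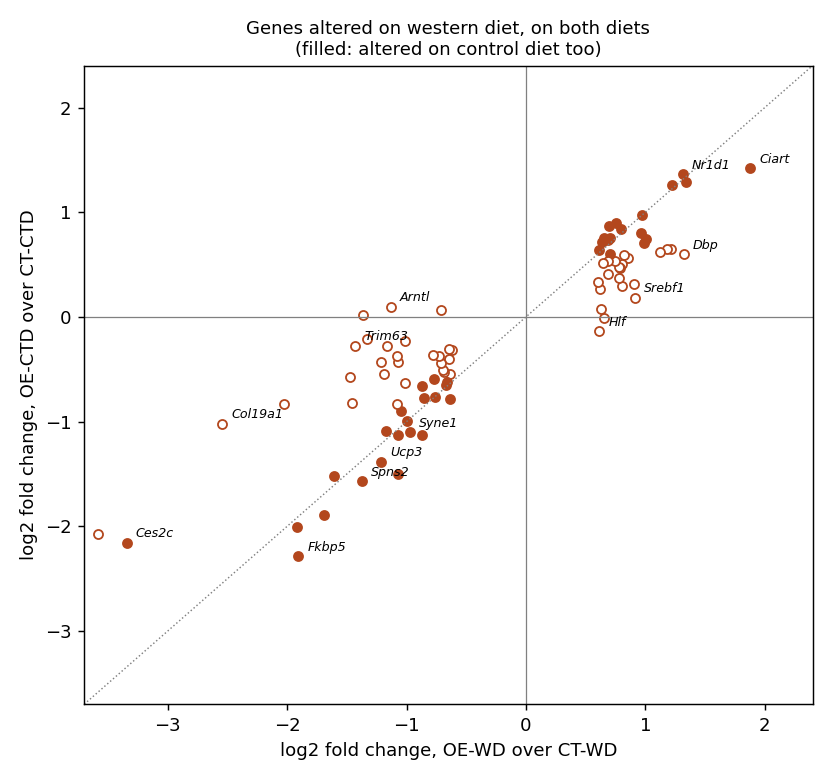
Log2 fold change of the 87 genes altered on western diet (horizontal axis) against that of the same genes on control diet (vertical axis), with a dotted line of equality and filled points for the 38 genes altered on both. Most points lie in the corners of equal direction, 82 of 87.

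Promoters were searched because 4 genes of the Dbp phase rose. The motif CACGTG, the E-box that Arntl and Clock bind and that Myc can bind too, was looked for in the 250 bases before each start in RefSeq promoters of GRCm38.p6, on both strands, where it reads the same. It was found for 6.86% of all 27025 genes with a promoter and for 9.69% of the 11033 tested genes matched by symbol. Matched altered genes held it in 3 of 26 that rose and 5 of 35 that fell. Of the 8 matched genes of the Dbp phase 3 held it. Ciart, which rose, had it more than once, and Tef had it too without an altered level. Dbp and Nr1d1 had no match in this window. Among the genes that fell, Fkbp5 and Fbp2 held it. Matches are shown 5′ to 3′ on the gene's strand, and capitals mark only the match at the centre of each stretch. The second stretch of Ciart holds a further match in lower case, nearer to the start.
Ciart chr3:95882322-95882361 minus strand: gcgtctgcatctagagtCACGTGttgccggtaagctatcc
Ciart chr3:95882264-95882303 minus strand: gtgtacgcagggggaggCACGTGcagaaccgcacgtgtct
Tef chr15:81802529-81802568 plus strand: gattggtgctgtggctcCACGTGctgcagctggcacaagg
Fkbp5 chr17:28486296-28486335 minus strand: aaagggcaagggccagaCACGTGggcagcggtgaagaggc
Fbp2 chr13:62858420-62858459 minus strand: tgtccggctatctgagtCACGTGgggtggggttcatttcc
The letters TGTTCT, searched on both strands and one arm of the site that the glucocorticoid receptor binds, were found for 13.2% of tested genes and for 4 of 16 matched glucocorticoid-responsive genes. Trim63 was one of them, and its site is shown because it fell.
Trim63 chr4:134314903-134314942 plus strand: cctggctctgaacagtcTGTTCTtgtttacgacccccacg
The site of Dbp and its relatives, TTATGTAA, searched on both strands, was found for 0.598% of tested genes and for 0 of the matched altered genes. Per3, of the Dbp phase list and with a log2 fold change of 0.44, held a pair of matches.
Per3 chr4:151044846-151044887 minus strand: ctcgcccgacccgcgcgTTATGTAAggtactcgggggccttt
Per3 chr4:151044799-151044840 minus strand: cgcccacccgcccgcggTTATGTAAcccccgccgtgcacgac
A match describes the letters in this window and says nothing on binding.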

How the data were processed

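Polyadenylated RNA of mouse skeletal muscle was sequenced in 14 samples, 7 of which form the comparison of OE-WD with CT-WD. The gene counts were deposited by the authors, who per their processing notes aligned reads to mm10 with HISAT2 2.0.5 and counted them with featureCounts 1.5.0-p3. The deposited FPKM values of the same samples were used for levels per length and as an alternative. The setting for strand is not stated.

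Groups were taken from the labels. Counts of 54532 genes were filtered with filterByExpr to 15458 and scaled by TMM. A model of the 4 groups was fitted with edgeR 4.0.16 (quasi-likelihood F test, two-sided, R 4.3.3), with Benjamini-Hochberg adjusted p over all genes tested. A gene was called altered at a fold change over 1.5 and an adjusted p under 0.05, and the interaction at an adjusted p under 0.05. The 7 samples held 21833839 to 27698046 counts, and the biological coefficient of variation was 17%. DESeq2 1.42.0, limma 3.58.1 on log2(FPKM + 1) and log2(FPKM + 0.1) at an FPKM of at least 0.5 in 3 samples, RLE scaling, no filter, the western diet groups alone, replicate number as a block, exchanged names and each sample left out were tried.

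Genes are named by a rule. Among altered genes whose groups do not overlap and whose mean is 1 CPM or more, it takes the 12 largest increases, the 12 largest decreases and the 10 smallest adjusted p. It adds altered members of 39 gene lists, Myc, and Socs3, Foxo1, Angptl4 and Wnt10a. That made 42 genes, and 8 more with an adjusted p under 0.05 were chosen after their values were seen, and 6 more named by the study are given beside them. Further list members are described without being called altered. The samples compared and the lists were chosen with earlier results of these data known. Lists are described by counts and medians, with no test.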

Additional observations from a re-analysis of the deposited data

Results flagged for a closer look

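In 5 of 91 groups of 4 samples checked, 1 OE-WD sample lay far from the others relative to the range of the 4, and chance does so in about 1 in 20 groups. OE-WD 1 was the high sample for 3 genes. It had 398 CPM of Trim63, where the next was 245 CPM, 44.9 CPM of Eya4, where the next was 41.2 CPM, and 9.03 CPM of Myc, where the next was 5.74 CPM. OE-WD 4 was the high sample for summed levels of 2 gene lists. Glycolysis genes summed to 40100 CPM there, with 31700 CPM in the next sample, and giant sarcomere and cytoskeleton genes to 34900 CPM, with 25200 CPM in the next. The cause was not tested. Groups of 3 samples, such as CT-WD, are too small for this check.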

How the results depend on the processing

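The count of 87 altered genes was 309 in DESeq2, 401 with no filter on low counts, 4 with the western diet groups alone, 29 in limma on log2(FPKM + 1), 32 on log2(FPKM + 0.1) and 1, shared with none of the 87, with exchanged names (CT-WD for OE-CTD and the reverse). It ranged over 4 to 905 with each of the 14 samples left out, and was 86 under RLE scaling. The count of 887 at an unadjusted p was 1412 with no filter, 280 in limma on log2(FPKM + 1) and 212 with exchanged names, and 595 to 1875 with a sample left out. The 295 genes on control diet became 509 in DESeq2, 570 with no filter and 129 in limma, and 64 to 440 with a sample left out. The interaction count of 0 was 3 in DESeq2 and 29 with no filter, and 0 to 1 with a sample left out. Of 998 values of single named genes under an alternative, 668 kept their side of the threshold, 326 no longer passed, 4 newly passed and 0 changed direction. Of 779 list medians, 52 moved by more than the spread between replicates, 18 of them without CT-WD 1. The number of altered genes in a list moved in 139 of 779 cases, 27 of them without CT-WD 1, 21 with no filter and 11 in DESeq2. With the replicate block the count was 77, of which 53 were among the 87, and the interaction count was 0. Of 50 named genes, 12 no longer passed with this block and 0 newly passed. The labels do not pair CT-WD with OE-WD, and correlations of the deviations between equal numbers of CT-WD and OE-WD were -0.23, -0.158 and -0.0647, so not every sample was closest to its own number. Between CT-CTD and CT-WD, which both enter the interaction and the comparison of diets, equal numbers gave 0.385, 0.123 and 0.203, and each CT-WD sample correlated best with the CT-CTD sample of its number. Read the other way, CT-CTD 2 correlated best with CT-WD 3, at 0.142. The cause was not tested.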
